A study of Mus musculus with 5 samples.

Results

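The Nance-Horan family comprises 4 genes in mouse, Nhs, Nhsl1, Nhsl2 and C77080, and every deposited region that names 1 of them was followed here through RNA immunoprecipitation sequencing of the actin regulator CYFIP1. These are 4 of the 4727 genes named in at least 1 region list, and they account for 59 of 16828 list entries, at 31 distinct places. They were chosen because their HA reads far exceeded their control reads, so those reads are given as a description and without a test. Anti-HA immunoprecipitates of hippocampus gave 2 knock-in C57BL/6 libraries, control IgG immunoprecipitates 2 more knock-in libraries with the same numbers, and an anti-HA immunoprecipitate 1 wild-type C57BL/6 library. The labels number the knock-ins 1 and 2, which are called mouse 1 and mouse 2 here, and do not say whether a number is a single animal. The labels name neither the knock-in allele nor the age or sex of the animals, and the series' stated aim gives CYFIP1 as the protein whose RNA partners were sought. The lists pair each knock-in HA library with the IgG library of the same number and, separately, with the single wild-type HA library, which makes 4 lists.

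NHS is the gene mutated in Nance-Horan syndrome, an X-linked disorder with congenital cataract and dental anomalies. The long forms of NHS proteins carry a WAVE homology domain at their amino end, and NHS and NHSL1 take part in the control of cell shape and of lamellipodia through the actin cytoskeleton. CYFIP1 is a subunit of the WAVE regulatory complex, which switches on Arp2/3-dependent actin assembly, and it also binds the fragile X protein FMRP and the cap-binding protein eIF4E. The messenger RNAs of Nhs and Nhsl1 therefore encode proteins of the same actin pathway as the precipitated protein. C77080 is named after a cDNA clone and encodes a further NHS-like protein, called KIAA1522 in human.

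The kinship of the genes can be read from the coding exon that follows the first coding exon, printed here for all 4 because each gene has it. Capitals mark the 43 bases identical in all 4 genes after alignment, and the rest is in lower case. Sequences are those of GENCODE M21 transcripts on GRCm38, 5′ to 3′ on the coding strand.
Nhs chrX:161875240-161875392, minus strand: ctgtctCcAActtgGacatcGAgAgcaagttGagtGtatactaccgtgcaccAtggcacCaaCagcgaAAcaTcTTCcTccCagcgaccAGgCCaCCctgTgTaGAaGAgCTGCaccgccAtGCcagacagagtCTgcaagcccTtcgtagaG
Nhsl1 chr10:18472919-18473071, plus strand: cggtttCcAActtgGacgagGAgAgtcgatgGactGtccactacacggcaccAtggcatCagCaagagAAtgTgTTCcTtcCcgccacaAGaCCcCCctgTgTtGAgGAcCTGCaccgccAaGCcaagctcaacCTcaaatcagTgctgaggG
Nhsl2 chrX:102071324-102071479, plus strand: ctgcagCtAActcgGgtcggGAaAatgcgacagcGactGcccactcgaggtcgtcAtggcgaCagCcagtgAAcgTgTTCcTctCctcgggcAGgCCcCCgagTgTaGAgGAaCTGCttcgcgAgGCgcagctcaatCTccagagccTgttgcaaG
C77080 chr4:129225843-129226013, minus strand: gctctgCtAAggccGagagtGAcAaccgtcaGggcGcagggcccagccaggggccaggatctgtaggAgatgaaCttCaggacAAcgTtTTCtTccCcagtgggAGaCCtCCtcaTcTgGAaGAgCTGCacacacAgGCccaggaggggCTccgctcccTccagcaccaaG
Over the aligned bases of this exon, Nhsl1 and Nhs were identical at 67.3%, Nhsl1 and Nhsl2 at 62.7%, and Nhs and Nhsl2 at 54.9%. C77080 matched the other genes at 45.8% to 48.4%, so it stands farthest from them in this exon.

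In the lists, reads are counted only inside called regions, and library totals are unknown. Called regions held 99575 and 64055 HA reads over IgG and 154408 and 166760 HA reads over wild type, for mice 1 and 2. A fold below is the ratio of HA to control reads summed over the regions of a gene, divided by the median region ratio of the same list among regions with at least 20 reads. A control of 0 reads was set to a floor of 3 reads per gene and list. Intervals are 95% Clopper-Pearson intervals for 1 pair of libraries, and they cover counting error only because PCR reads are not independent molecules. Nothing in the labels says whether the numbered libraries differ by more than preparation, so a spread between them may be technical. Whole hippocampus was used, so the number of expressing cells and the amount of mRNA per cell cannot be told apart, and input RNA was not analysed here. Of 10 markers of hippocampal excitatory neurons, 5 had a region in at least 1 list, as did 2 of 5 astrocyte, 2 of 5 oligodendrocyte and 1 of 4 microglia markers. Regions were called on 0 of 6 interneuron, 0 of 3 endothelium, 0 of 2 choroid plexus and 0 of 2 blood markers. The lists hold called regions alone, so a marker without a region has no measured level.

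Over IgG, all 4 family mRNAs were recovered with HA in both knock-in mice at many times their IgG reads. Each of them was at least 4-fold above the list median in both lists, where 3.19% of 1097 genes in mouse 1, 3.89% of 719 genes in mouse 2 and 4.85% of 392 genes with enough reads in both mice reached that level. The median fold of the 4 genes was 98.6 in mouse 1 and 92.4 in mouse 2, beside 0.839 and 0.822 for all genes with at least 20 reads. Nothing is read from these shares, because the same reads chose the genes.

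Nhs, the founding member, had 676 HA reads against 2 IgG reads in mouse 1. In mouse 2 it had 827 HA reads against 3 IgG reads. Both HA libraries thus stood far above both IgG libraries, and the small IgG numbers leave the fold wide open in each mouse. It was 117 in mouse 1 with an interval of 32.2 to 966, and 291 in mouse 2 with an interval of 99.3 to 1415, a mean log2 fold of 7.53 ± 0.93 (SD, n = 2). Before scaling the ratios were 338 and 276, so the higher fold of mouse 2 comes from its lower list median.

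Nhsl1, whose protein restrains the WAVE complex in migrating cells, had 2348 HA reads and 5 IgG reads in mouse 1. In mouse 2 it had 1789 HA reads and 21 IgG reads in the regions called there. The folds were 162 (interval 69.4 to 500) and 90.0 (interval 58.7 to 146), with overlapping intervals and a mean log2 fold of 6.92 ± 0.60 (SD, n = 2). The lower HA sum of mouse 2 comes with a missing region, since the last exon was called over IgG in mouse 1 only.

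Nhsl2, the second X-linked member, had 6278 HA reads and 27 IgG reads in mouse 1 and 7002 HA reads and 78 IgG reads in mouse 2. That gave 80.3-fold (interval 55.2 to 122) and 94.8-fold (interval 75.9 to 120), and a mean log2 fold of 6.45 ± 0.17 (SD, n = 2). The unscaled ratios were 233 and 89.8, so the 2 mice are close only after scaling. It contributed more HA reads than any other member in both mice, 6.30% and 10.9% of all HA reads in the regions over IgG. Most of these reads lie in 1 region that also covers another gene, Rgag4.

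C77080 had the smallest excess, with 348 HA reads and 8 IgG reads in mouse 1 and 515 HA reads and 21 IgG reads in mouse 2. Its folds of 15.0 (interval 7.54 to 35.1) and 25.9 (interval 16.8 to 42.2) overlapped in their intervals and averaged 4.30 ± 0.56 on the log2 scale (SD, n = 2). Most C77080 reads lie in 1 region that also covers the end of another gene, Yars. Unscaled, the C77080 ratios were 43.5 and 24.5, in the opposite order. With the median of chromosome 4 as the scale, an alternative chosen after the data were seen, its folds were 12.4 in mouse 1 and 7.88 in mouse 2, where only 19 regions set the median. On the scale of the whole list, in mouse 1 and in mouse 2 its interval ended below the lower bound of each of the other 3 members, with 1 exception, the Nhs interval of mouse 1, which began at 32.2.

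**Figure D1:**
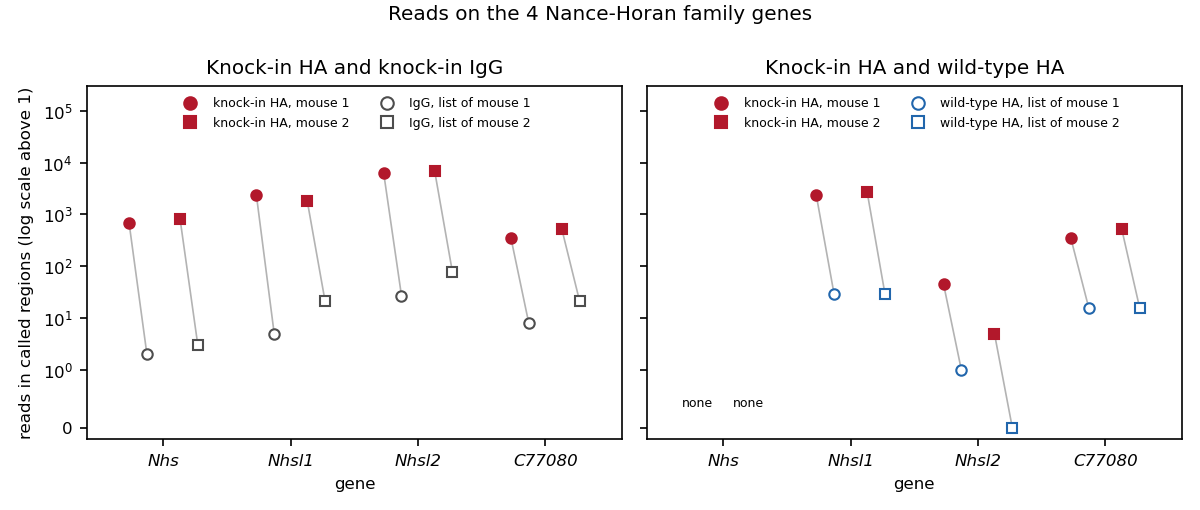
Reads in called regions on each family gene (vertical axis, reads, log scale above 1) for knock-in HA and its control, with IgG in the left panel and wild-type HA in the right; circles are the lists of mouse 1, squares those of mouse 2, and a line joins the libraries of 1 list. Over IgG all 4 genes have HA reads between 348 and 7002 and control reads between 2 and 78, and Nhs has no region over wild type.

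Over wild-type HA, which carries the same antibody but no knock-in allele, Nhsl1 and C77080 could be compared in both mice, and both had far more reads in the knock-in HA libraries. Nhsl1 had 2348 and 2666 HA reads in knock-in mice 1 and 2, against 29 wild-type HA reads in each of the 2 lists. These were 57.3-fold (interval 39.8 to 85.8) and 52.5-fold (interval 36.5 to 78.6), a mean log2 fold of 5.78 ± 0.09 (SD, n = 2). C77080 had 348 and 518 knock-in HA reads against 16 wild-type HA reads in each list. These were 15.4-fold (interval 9.35 to 27.2) and 18.5-fold (interval 11.3 to 32.6), a mean log2 fold of 4.08 ± 0.19 (SD, n = 2). Most of the C77080 reads lie in 1 region that also covers the end of Yars. Without it C77080 had 13 and 33 HA reads against 3 wild-type reads in each list, or 3.07-fold and 6.29-fold. Both ratios divide by 1 wild-type library, so these SDs hold no variation of the control and a difference of that single mouse or library cannot be told apart from the allele. Among genes with at least 20 reads, 1.75% of 1942 in mouse 1, 1.67% of 1677 in mouse 2 and 0.67% of 1194 in both reached 4-fold, and the members again were chosen on these reads.

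Nhs had no region over wild type in either list, and Nhsl2 had a different one in each, so neither was compared over both mice. In mouse 1 the region over wild type was the first exon of Nhsl2, with 45 knock-in HA reads and 1 wild-type HA read (31.9-fold, interval 5.44 to 1286). In mouse 2 it was an intron stretch with 5 knock-in HA reads and 0 wild-type HA reads, which is under the 20 reads asked of a gene. Regions were unevenly spread over chromosomes. On the X chromosome, the home of Nhs and Nhsl2, the lists over IgG held 230 and 11 regions and those over wild type 1 and 184. The single X-chromosome region over wild type in mouse 1 is that first exon of Nhsl2, and Nhs and Nhsl2 together hold 6 of the 11 over IgG in mouse 2. On chromosome 10, Nhsl1 accounts for 7 of 10 and 7 of 20 regions over IgG and for 7 of 10 and 8 of 22 over wild type, in mice 1 and 2.

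**Figure D2:**
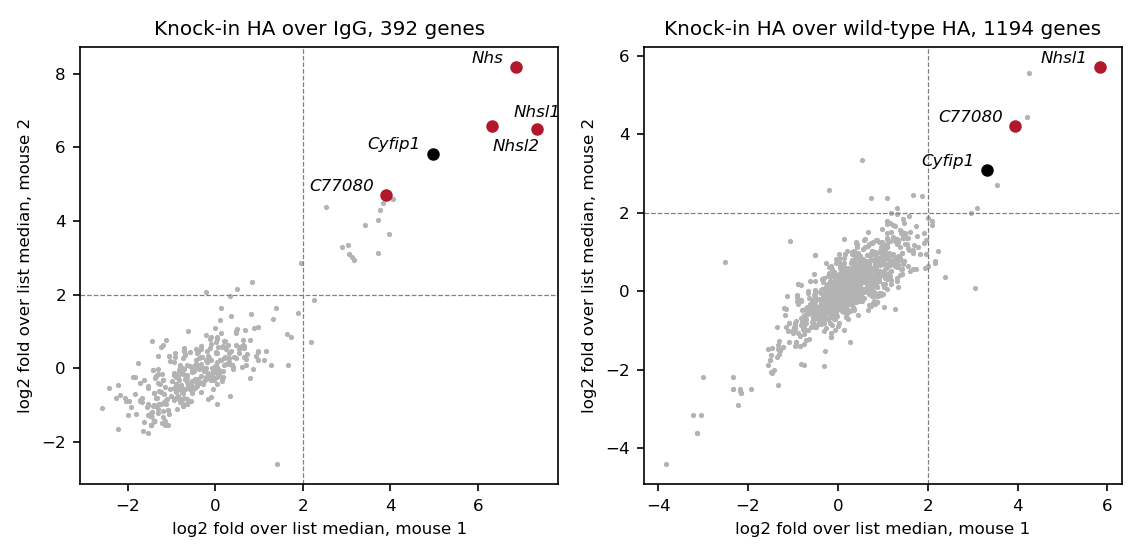
Log2 fold over the list median in mouse 1 (horizontal axis) and mouse 2 (vertical axis) for genes with at least 20 reads in both lists, over IgG on the left (392 genes) and over wild-type HA on the right (1194 genes); family genes are red, Cyfip1 black, other genes grey, and dashed lines mark 4-fold. The family genes lie at the upper right, from C77080 at mean log2 4.30 to Nhs at 7.53 over IgG, and the right-hand axes share 1 wild-type library.

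A set of 5 stretches of Nhsl1 has identical coordinates in all 4 lists, which allows the 5 libraries to be set side by side without a change of boundaries. Over these 5 regions, the knock-in HA libraries had 1560 and 1684 reads, the IgG libraries 2 and 18 reads, and the wild-type HA library 25 reads. Both HA libraries of knock-in mice therefore lay far above all 3 controls, and the wild-type library lay near the higher of the IgG libraries in raw reads. The depth of the libraries is unknown, so the control libraries were not ranked.

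Nhsl1 was the member whose exons could be read singly, since each region there covers about 1 coding exon. GENCODE M21 gives it 10 coding exons in its 3 basic coding transcripts, on the plus strand of chr10:18318985-18533892. The largest region, chr10:18523681-18527040, covers the 3252-base exon 8 and held 1273 and 1380 HA reads, 2 and 17 IgG reads and 21 wild-type reads. The last exon, number 10, lies under chr10:18531241-18533760 with 723 and 877 HA reads and 4 wild-type reads, and with 2 IgG reads in mouse 1. The short exons 4, 5, 6 and 9 had 49, 37, 65 and 83 HA reads in mouse 1, with 0, 0, 1 and 0 IgG reads. In mouse 2 they had 55, 43, 72 and 89 HA reads, with 0, 0, 2 and 1 IgG reads. Every constitutive internal exon was thus marked by HA reads in both mice.

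Per kb of covered exon, the HA level was rather even along Nhsl1. Leaving out exon 2, the 7 exons with a region ran from 290 to 624 HA reads per kb in mouse 1 with a median of 392, and from 352 to 669 in mouse 2 with a median of 401. Exon 10 was lowest and exon 9 highest in both libraries. Regions also hold flanking intron bases and end on a fixed 210-base grid, so levels of the shortest exons are the least exact. Exon 1, at the 5′ end, had 404 and 401 HA reads per kb, near the median.

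**Figure D3:**
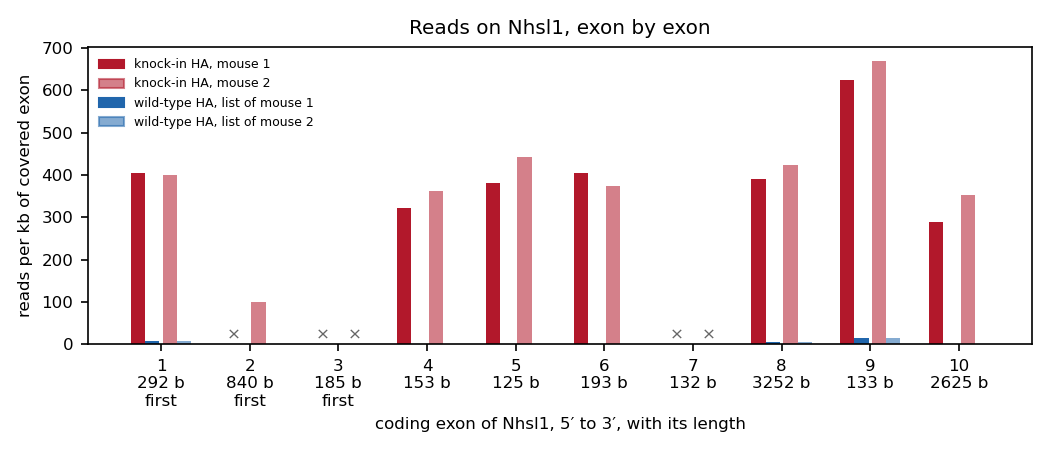
Reads per kb of covered exon (vertical axis) for the 10 coding exons of Nhsl1 in 5′ to 3′ order, with length in bases and the alternative first exons named, from the lists over wild type; red bars are knock-in HA, blue bars wild-type HA, full colour mouse 1 and pale colour mouse 2, and a cross marks an exon without a region. Exons 1, 4 to 6 and 8 to 10 lie between 290 and 669 in HA, exon 2 has 98.8 in mouse 2 only, and exons 3 and 7 have no region.

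The transcripts of Nhsl1 start at 3 alternative first exons, which encode different amino ends, and the lists hold different regions on them. Exon 1, the most upstream, was called in all 4 lists as chr10:18318721-18319350, with 118 and 117 HA reads, 0 and 0 IgG reads and 2 wild-type reads. The deposited annotation places this region upstream of Nhsl1, whereas in GENCODE M21 it holds the whole exon and 264 bases before it. Exon 2 had a region in mouse 2 only, chr10:18408181-18408600, with 33 HA reads, 1 IgG read and 0 wild-type reads. It covers 334 of the 840 bases of exon 2. Per kb of covered exon, exon 2 had 98.8 HA reads and exon 1 had 401 in the same library. Per kb of whole region, which for exon 1 includes the 264 bases before it, the values were 78.6 and 186. Exon 3 had no region in any list. The coding parts of the 3 exons are printed because they distinguish the transcripts, with the start codon in capitals.
Nhsl1 exon 1 chr10:18318985-18319276, plus strand: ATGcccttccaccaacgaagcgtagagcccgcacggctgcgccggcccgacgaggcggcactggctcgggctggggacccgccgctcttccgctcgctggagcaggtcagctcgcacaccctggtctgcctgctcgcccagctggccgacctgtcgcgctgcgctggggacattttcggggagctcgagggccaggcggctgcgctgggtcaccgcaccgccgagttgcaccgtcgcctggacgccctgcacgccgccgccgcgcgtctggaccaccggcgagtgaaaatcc
Nhsl1 exon 2 chr10:18408313-18408514, plus strand: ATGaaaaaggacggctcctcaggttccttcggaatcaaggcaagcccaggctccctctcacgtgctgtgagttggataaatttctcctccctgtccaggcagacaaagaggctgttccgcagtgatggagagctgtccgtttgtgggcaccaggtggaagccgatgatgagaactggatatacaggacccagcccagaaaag
Nhsl1 exon 3 chr10:18470108-18470165, plus strand: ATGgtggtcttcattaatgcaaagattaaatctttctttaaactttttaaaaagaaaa
A transcript's share was not estimated, since an exon without a region has no measured reads.

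Exon 7 of Nhsl1, a 132-base exon used by 1 of the 3 coding transcripts, was the other exon without a region in any list, although exons 6 and 8 on either side of it were called in all 4. It is shown because it is the coding exon that the captured regions skip, with capitals for the 46 bases identical to the 132-base exons of Nhs and Nhsl2.
Nhsl1 exon 7 chr10:18516029-18516160, plus strand: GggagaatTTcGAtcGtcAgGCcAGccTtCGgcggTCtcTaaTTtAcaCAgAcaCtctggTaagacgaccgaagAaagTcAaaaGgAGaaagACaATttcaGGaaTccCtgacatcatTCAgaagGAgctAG
The same transcript is the one that begins at exon 3. The exons of equal length in Nhs and Nhsl2 lie inside long regions that merge several exons, so their own reads cannot be given. Identity over these 132 bases was 55.3% between Nhsl1 and Nhsl2 and 53.0% between Nhsl1 and Nhs.

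On Nhs, which runs on the minus strand of chrX:161833296-162159730, most reads lay in 1 block at the 3′ end, where most of its exon bases also lie. The block chrX:161833356-161849755 of mouse 1 held 554 HA reads against 2 IgG reads, and chrX:161833001-161849600 of mouse 2 held 723 HA reads against 3 IgG reads. It spans coding exons 4 to 9 and the introns between them. The block holds 7560 and 7620 exon bases and had 73.3 and 94.9 HA reads per kb of exon, in mice 1 and 2. The first exon, at the far end of the gene, had 45 HA reads against 0 IgG reads in each of the mice, which is 50.1 HA reads per kb of exon in both. A region over exons 2 and 3 was called in mouse 1 only, with 27 HA and 0 IgG reads, or 98.2 HA reads per kb of exon. Both ends of the transcript were therefore present in the HA libraries of both mice.

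One Nhs region touched no Nhs exon. It lies in intron 1 at chrX:161907566-161909615 in mouse 1, with 50 HA and 0 IgG reads, and at chrX:161907801-161909200 in mouse 2, with 59 HA and 0 IgG reads. Both cover the whole of Gm15202, an antisense gene on the opposite strand. With the IgG floor of 3 reads, this region was at least 5.76-fold in mouse 1 and at least 20.8-fold in mouse 2 above the list median. The counting is not stated to use strand, so reads of Gm15202 and of the Nhs intron cannot be told apart.

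On Nhsl2, plus strand of chrX:101849385-102092055, 1 long region held nearly all reads. It was chrX:102050231-102109680 with 6046 HA reads against 26 IgG reads in mouse 1, and chrX:102066001-102104000 with 6939 HA reads against 78 IgG reads in mouse 2. It covers coding exons 2 to 8 and also the whole of Rgag4, called Rtl5 in GENCODE M21, a retrotransposon Gag-like gene on the opposite strand in the first intron. Rgag4 has 4761 exon bases and shares 0 of them with Nhsl2 exons, but the region's reads cannot be split between the genes. Per kb, the region had 421 and 488 HA reads when only Nhsl2 exons are counted and 316 and 366 when Rgag4 exons are added. In mouse 1 the region also takes in the pseudogene Gm5125.

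Away from Rgag4, Nhsl2 reads were fewer but had the same direction. Its first exon had 45 and 51 HA reads against 0 IgG reads in mice 1 and 2, or 97.2 and 110 HA reads per kb of exon. The exon-bearing region chrX:101947526-101947730 of mouse 1 had 7 HA and 0 IgG reads, and chrX:101947601-101947800 of mouse 2 had 12 HA and 0 IgG reads. A region of mouse 1 at chrX:102004106-102005335, with 173 HA and 0 IgG reads, contains 100 exon bases of a further coding transcript that begins there. It had no counterpart in mouse 2. With every region shared with another gene left out, Nhsl2 had 232 HA reads and 1 IgG read in mouse 1 (80.2-fold). Of these HA reads, 173 come from that region of mouse 1. In mouse 2 Nhsl2 then had 63 HA and 0 IgG reads (22.2-fold with the floor).

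C77080, minus strand of chr4:129219578-129261404, likewise had most of its reads in 1 region, which holds its coding exons 4 to 9. This was chr4:129218251-129226250 with 335 HA, 7 IgG and 13 wild-type reads in mouse 1, and chr4:129218501-129226000 with 485 HA, 21 IgG and 13 wild-type reads in mouse 2. It runs past the 3′ end of C77080 into the 3′ end of Yars, the tyrosyl-tRNA synthetase gene on the opposite strand, with 1177 and 1107 bases of Yars exon against 4864 and 4851 bases of C77080 exon. Both genes share 30 exon bases there, and the reads cannot be divided between them.

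The alternative first exons of C77080 lie outside that overlap and had few reads. The most upstream of the 3 had 9 and 18 HA reads in mice 1 and 2, with 0 IgG and 0 wild-type reads each time. The middle one had 4 HA reads, 1 IgG read and 3 wild-type reads in mouse 1, and 12 HA reads, 0 IgG reads and 3 wild-type reads in mouse 2. The most downstream one had a region over wild type in mouse 2 only, with 3 HA reads and 0 wild-type reads. On these regions alone C77080 was 4.49-fold over IgG in mouse 1, from 13 HA reads and 1 IgG read. In mouse 2 it was 10.6-fold with the floor, from 30 HA reads and 0 IgG reads. Against wild-type HA the same regions gave 3.07-fold in mouse 1, below the 4-fold level, and 6.29-fold in mouse 2. Most of the reads behind the C77080 fold come from the region shared with Yars.

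**Figure D4:**
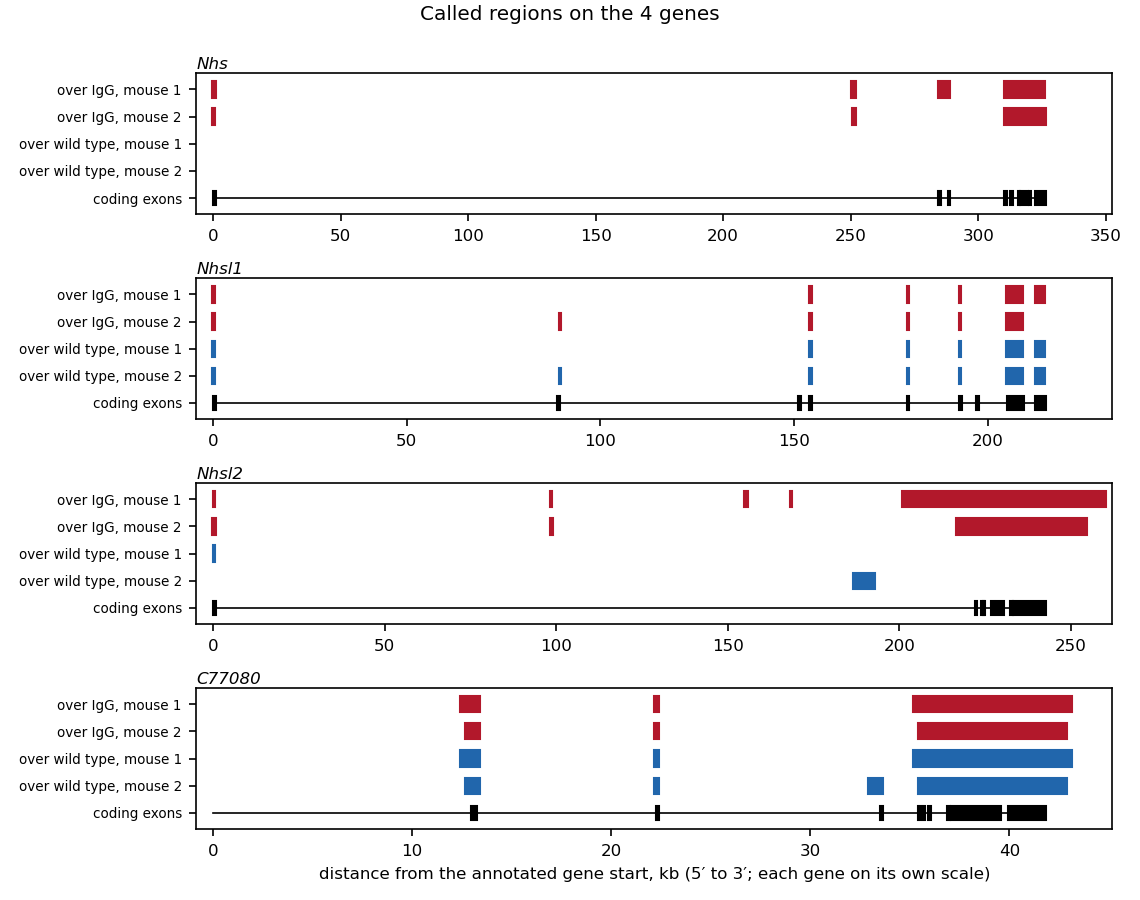
Called regions on each family gene, by distance from the annotated gene start in kb on the horizontal axis, with 1 row for each list (red over IgG, blue over wild type) and coding exons in black; very short features are widened so that they can be seen. Nhsl1 has separate regions at single exons in all 4 lists, and Nhs and Nhsl2 have their longest regions over the last exons and only over IgG.

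Per kb of exon inside the called regions, Nhsl2 had 418 and 472 HA reads, Nhsl1 357 and 386, Nhs 77.4 and 97.1 and C77080 65.0 and 96.4, in the lists of mice 1 and 2 over IgG. The levels of Nhs and C77080 overlap between the libraries and were not separated by them. Nhsl2 stood above Nhsl1 in both mice when its shared region is credited to it alone, and the 316 and 366 reads per kb of that region with Rgag4 exons lie below the Nhsl1 values of 357 and 386. The order of Nhsl1 and Nhsl2 is therefore not fixed by these data. Nhsl1 was several times above Nhs and C77080 in each library. For Nhsl2 most of the reads behind such a lead lie in the region shared with Rgag4. Outside it, chrX:102004106-102005335 had 1730 HA reads per kb of exon in mouse 1, over 100 exon bases, and no counterpart in mouse 2. The first exon of Nhsl2, also outside the shared region, had 97.2 and 110 HA reads per kb, where the first exon of Nhs had 50.1 in both mice.

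Nearly all HA reads of the family were in regions that touch an exon, but a region's reads are not placed within it, and only 34.5% and 45.9% of the bases of the family's regions over IgG are exonic. Regions that touch an annotated exon of the named gene held 99.4% of the family's HA reads over IgG in each mouse. The shares were 77.6% and 88.6% for other protein-coding genes. No interval is given, because all reads of a region share its status. Of the family's regions over IgG, 17 of 19 in mouse 1 and 15 of 16 in mouse 2 touched an exon. Over wild type the family's share was 100% and 99.8%, against 89.3% and 80.2%. By number of regions the family was close to the rest, with 89.5% and 93.8% of its regions over IgG touching an exon, against 89.1% and 89.2%. The share by reads depends on what counts as exonic: where at least 50% of a region had to be exon, it was 27.2% and 21.5% for the family over IgG, against 35.7% and 46.5% for other genes. The long Nhsl2 region, mostly intron by length, falls out under that rule. Over wild type, where that region is not listed, the same rule gave 94.0% and 94.2% for the family, against 34.7% and 40.4% for other genes. The direction of the difference therefore changes with the rule over IgG. Regions shared with Rgag4 or Yars are counted in both groups, among them the long Nhsl2 region over IgG with 6046 and 6939 HA reads, so the groups overlap. No test was made between the family and the rest, since 1 or 2 libraries stand behind each share.

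Few other mRNAs of the pathway were measured. Of the 11 WAVE complex genes, 4, 2, 4 and 4 had at least 20 reads over IgG in mice 1 and 2 and over wild type in mice 1 and 2. In each list 1 of them, Cyfip1, was at 4-fold or more, beside 3.19%, 3.89%, 1.75% and 1.67% of all genes with that many reads. Cyfip1 encodes the precipitated protein itself. Cyfip1 had 6101 and 6186 HA reads against 67 and 115 IgG reads, at 31.5-fold and 56.8-fold, and against 431 and 416 wild-type reads, at 10.0-fold and 8.50-fold. Its fold over IgG had an interval of 24.7 to 40.6 in mouse 1, which overlaps those of Nhs and C77080. In mouse 2 it was 47.3 to 68.9, which overlaps that of Nhsl1 and lies above that of C77080 (16.8 to 42.2). The Cyfip1 fold over IgG was above that of C77080 in both mice. Over wild type the order was reversed in both mice, with 15.4-fold and 18.5-fold for C77080. Most C77080 reads lie in the region shared with Yars. The Cyfip1 regions over IgG were cut differently, as 1 of 62.0 kb in mouse 1 and 26 with 8.20 kb in all in mouse 2. Wasf1, which encodes the WAVE1 subunit, had 69 and 95 HA reads against 12 and 46 IgG reads in mice 1 and 2, at 1.99-fold and 2.18-fold. Wasf2, the WAVE2 gene, had 29 and 6 HA reads against 5 IgG reads and 1 IgG read. Brk1, the smallest subunit's gene, had 20 HA reads against 9 IgG reads in mouse 1 and lacked a region over IgG in mouse 2, and Abi2 had 9 HA reads against 2 IgG reads in mouse 1 alone.

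Of the 10 Arp2/3 genes, 1, 0, 3 and 4 had at least 20 reads in the same order of lists, and 0 of these were at 4-fold, which at the shares of all genes given above is no result about the list. Of 8 partners and regulators of the complex, 1, 0, 2 and 2 had at least 20 reads, and 1 was at 4-fold over wild type in each mouse. That gene was Nyap2, whose protein binds the WAVE complex and phosphoinositide 3-kinase, with 27 and 83 knock-in HA reads against 1 wild-type HA read in each list. Over IgG it had 13 HA reads against 3 IgG reads in mouse 1, and mouse 2 had no region.

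The genes most like the family over the 4 lists, by the distance of their log2 folds from the mean of the members among 268 protein-coding genes with at least 20 reads in each list, were Cyfip1 at a distance of 2.79, Dcaf10 at 6.42 and Shank2 at 7.48. Dcaf10 encodes a substrate receptor of a ubiquitin ligase and Shank2 a scaffold of the postsynaptic density. The members averaged log2 folds of 6.11 and 6.49 over IgG, where Cyfip1 had 4.98 and 5.83, Dcaf10 3.42 and 3.89, and Shank2 1.96 and 2.87. Over wild type, the members with a region and enough reads averaged 4.93 and 4.96, where Cyfip1 had 3.33 and 3.09, Dcaf10 3.06 and 0.09, and Shank2 1.53 and 1.21. The 4 lists share the same pair of HA libraries and 1 wild-type library, so they are not 4 independent measurements.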

How the data were processed

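RNA immunoprecipitates of hippocampus from 3 groups (2, 2 and 1 libraries) were prepared with the NEBNext Ultra kit and read in 50 single-end cycles, per the labels. The submitters' processing notes name TopHat and TopHat2 and the builds GRCm38 and mm10. Per the file headers, rtracklayer 1.28.9 wrote the lists; what called the regions is not stated there. For every region, other values of the authors were deposited, among them whole read numbers of the HA and the control library, which are not scaled for library size. Libraries were matched to lists by the list names. HA reads were equal in 3212 of 3212 and 1587 of 1587 regions that both lists of mouse 1 and mouse 2 share.

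All rows naming a member were used, whatever their placement; other genes were given the regions placed on them. Folds, the 20-read minimum, the floor of 3 and the 4-fold level are as defined with the results. Exons came from GENCODE M21 (GRCm38, the build of the lists), exon sequences from its transcripts, aligned with mafft 7.526. Python 3.11.15, pandas 2.3.3, scipy 1.17.1 and matplotlib 3.10.9 were used. The fold and interval computations were tested on simulated regions that had control reads, so gene folds that use the floor were not covered. No test between groups was made. A chi-square test over 191 identical regions separated the 2 HA libraries (p = 4.55e-07), though not over 190 without Malat1 (p = 0.129). This test sets libraries against counting noise alone and does not show separate animals. They were counted as 2 samples because the labels number them so. The IgG libraries were separated as well, over 58 regions (chi-square p = 4.92e-15). The members, the pathway and marker lists, and the limits were chosen with earlier results of these data known. Named genes are the members, genes sharing their regions, Cyfip1 with up to 4 other WAVE genes, and the 3 genes nearest to the members' mean outside the members and the sharing genes. Nyap2 was named after its values were seen. The alternatives tried were other scalings, read minimums and floors, stricter choices of regions, and each mouse alone.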

Additional observations from a re-analysis of the deposited data

How the results depend on the processing

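No paired analysis was possible because the results come from no test; the mean and SD of log2 folds are already taken over the pairs of equal number. The mean log2 fold over IgG of the 4 genes was 6.30, and it was 5.55 with the pooled ratio as scale, 7.03 without scaling, 5.87 with a minimum of 50 reads for the median, 5.91 with regions at an authors' adjusted p below 0.05 only, and 5.63 without regions shared with another gene. For each mouse alone it was 6.11 and 6.49. The mean log2 fold over wild type of Nhsl1 and C77080 was 4.93, and under the same alternatives it was 5.76, 5.58, 5.06, 4.86 and 3.96; with the top region alone it was 4.81, and for each mouse alone 4.89 and 4.96. The number of genes at 4-fold or more in both mice stayed at 4 over IgG, and over wild type it was 2, or 1 without shared regions, where C77080 missed it in mouse 1. No read minimum was asked in these counts. Without shared regions C77080 in mouse 1 had 13 HA reads and 1 IgG read, under the 20 reads asked of a gene elsewhere, so the count of 4 includes it below that limit. The exonic share was 99.4% as the mean of both mice, 24.4% where 50% of a region had to be exon, and 99.4% with regions placed on the gene only or for each mouse alone. The median of the same chromosome was not used as scale over IgG for all genes, because chromosome 10 and, in mouse 2, chromosomes 4 and X have fewer than 20 regions with enough reads; C77080 scaled by chromosome 4 all the same had a mean log2 fold of 3.31 in place of 4.30. Unknown library depth leaves every fold relative to its list, and few control reads leave those of Nhs, and of Nhsl2 over wild type, inexact.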
